A study of Mus musculus with 6 samples.

Results

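Matricellular proteins are secreted into the extracellular matrix but act on cells through surface receptors more than they bear load. Fibronectin is an adhesive glycoprotein of the provisional matrix that fills a wound before collagen matures. In the adult heart many of these genes are known for low expression at rest and renewed expression after injury, mainly in fibroblasts and, for some members, in macrophages and vessel wall cells. The group described here holds 10 genes, chosen by name: Spp1 (osteopontin), Tnc (tenascin C), Thbs1, Thbs2 and Thbs4 (thrombospondins), Sparc (osteonectin), Postn (periostin), Ccn1 (formerly Cyr61), Ccn2 (formerly Ctgf) and Fn1 (fibronectin). They were chosen with earlier results of these data known. Every probe that the platform annotation assigns to them was taken, which gave 25 of the 45281 probes of the array and covered 9 of the 10 genes. No probe in the annotation used here carries the name Spp1, so osteopontin was not analysed here.

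Whole hearts of male wild type C57Bl6 mice were profiled on 6 Illumina bead arrays. Uninjured hearts gave 3 arrays. The other 3 came from hearts that had ischemia-reperfusion (IR), 90 min with the left anterior descending coronary artery tied and then 72 h after its release. The labels say that the control mice had no operation, while the column names of the signal table call them sham. If they had none, the effects of the operation and of IR cannot be told apart. Whether the arrays of a group stand for different mice is not in the labels, and the p-values reflect array-to-array spread, which may be technical. Arrays are lettered A, B and C for uninjured hearts and D, E and F for IR hearts, in ascending order of the number in their column names.

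Levels below are log2 of the background-corrected, quantile-normalised intensity plus 16, and a probe counted as detected on an array where its detection p-value was under 0.05. Detected probes made up 35.1% to 39.4% of the array in uninjured hearts and 39.8% to 42.5% in IR hearts. The lowest level of any detected probe lay between 4.61 and 4.88 across the arrays, so values near there are background. Pearson's r between arrays, taken across tested probes (which are not independent of each other), was 0.988 to 0.990 within the uninjured group, 0.995 to 0.996 within the IR group and 0.838 to 0.853 from group to group. Heart muscle transcripts were abundant in both groups, with Myh6, the adult myosin heavy chain, at a mean level of 13.8 in uninjured and 11.0 in IR hearts. Of the 25 probes, 18 were detected on at least 3 arrays and were tested, and they represent 8 genes. The other 7 probes, among them the Thbs4 probe, are given by their values alone.

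Transcripts of Tnc, Fn1, Ccn2, Thbs2, Sparc, Thbs1 and Ccn1 were higher 72 h after IR than in uninjured hearts. On its brightest probe the rise was 18.8-fold for Fn1, 6.19-fold for Ccn2, 6.17-fold for Thbs2, 4.59-fold for Sparc and 2.16-fold for Ccn1. On probes undetected at rest, Tnc (ILMN_2463180) was at least 38.0-fold and Thbs1 at least 2.73-fold higher in the background-corrected values. Without background correction these probes rose by 3.78 and 0.75 on the log2 scale. Another Tnc probe was detected on 1 uninjured array, and some Tnc probes stayed near background on all arrays. Postn was undetected at rest and near the detection limit after IR, and Thbs4 was detected on no array. Of the 18 tested probes limma (adjusted p under 0.05) called 17 higher and 0 lower, where 36.5% of all 18197 tested probes rose and 33.1% fell, and 16 rose by at least 2-fold, where 13.1% did. Every IR array lay above every uninjured array on 17 of the 18 probes, an order found for 38.3% of all tested probes. The median log2 fold change was 1.88 for the 18 probes and 0.03 for all tested probes. These counts are a description, because 6 of the 18 probes were undetected on all uninjured arrays and 2 more were detected on 1, so that they entered the test through the IR arrays. All 10 member probes detected on the 3 uninjured arrays rose, against 32.0% of the 14218 probes so detected. These 10 are probes of Sparc, Ccn1, Ccn2, Thbs2 and Fn1. This count too is a description, because the members were chosen with earlier results of these data known. In whole-heart RNA, more cells of a type and more RNA per cell cannot be told apart.

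**Figure D1:**
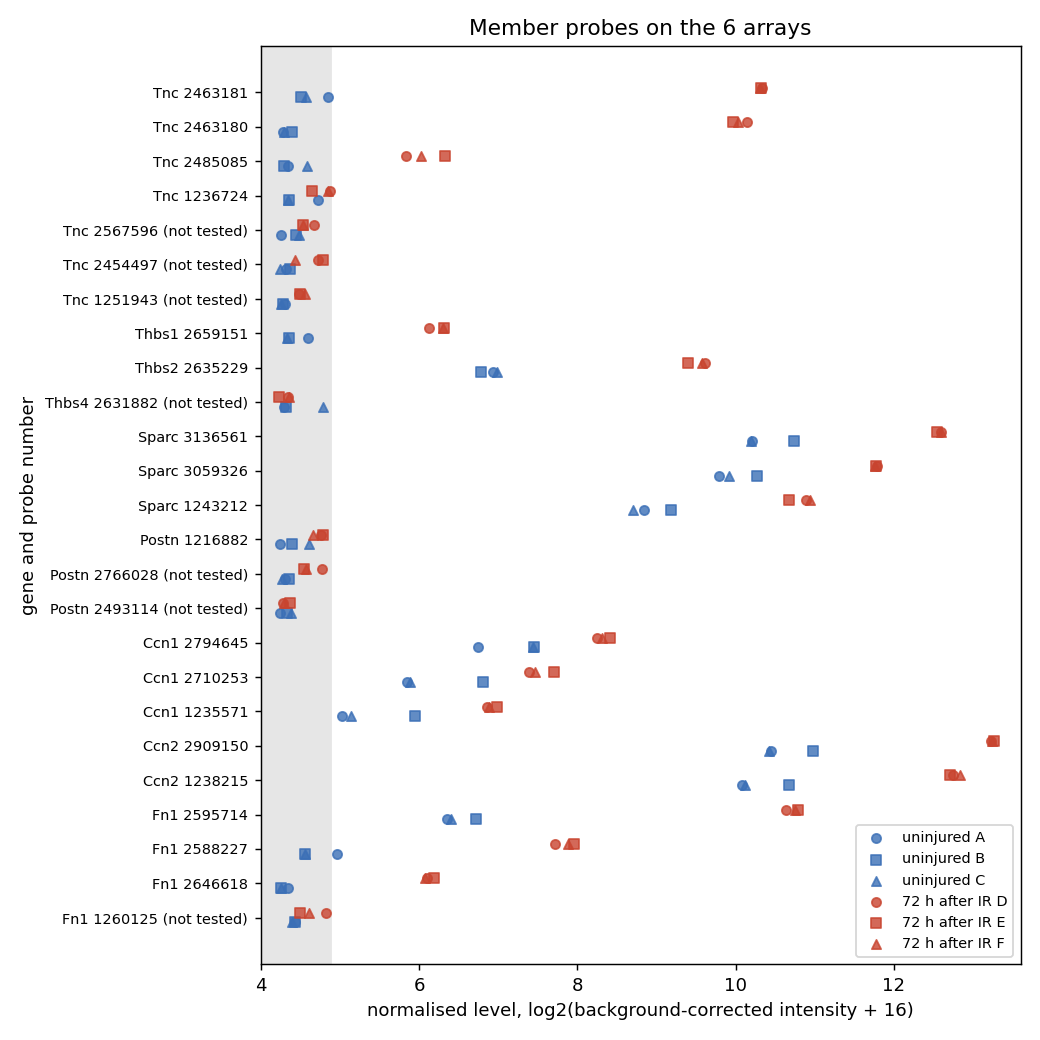
Normalised level, as log2(background-corrected intensity + 16), of the 25 member probes on each array, with uninjured hearts in blue and IR hearts in red and 1 marker shape per array. Grey marks levels up to 4.88, the highest of the arrays' lowest detected levels. The groups lie apart on all tested probes except Tnc ILMN_1236724, and the untested probes lie within the grey zone.

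Fibronectin binds integrins, collagen and other matrix proteins and is assembled by cells into fibrils. Its brightest probe, ILMN_2595714, gave levels of 6.36, 6.72 and 6.40 on uninjured arrays A, B and C, and of 10.64, 10.79 and 10.74 on IR arrays D, E and F. The IR arrays lay close together and the lowest of them was 15.1-fold above the highest uninjured array. The log2 fold change was 4.23 ± 0.11 (SE, n = 3 per group, limma adjusted p = 1.82e-07), and this probe ranked 43 of 18197 by rise. In the signals as deposited, before background correction, the group means were 136 and 1991. A second probe, ILMN_2588227, was detected on 1 uninjured array and all IR arrays, with levels of 4.97, 4.56 and 4.56 against 7.72, 7.96 and 7.88, which is a rise of 3.16 ± 0.13 on the log2 scale (adjusted p = 7.57e-07). The third, ILMN_2646618, was undetected in uninjured hearts and at least 2.50-fold higher after IR (adjusted p = 6.15e-07). The last one, ILMN_1260125, was detected on 1 IR array alone and was not tested. All 4 are annotated to the same transcript, NM_010233. The last 3 were at or near background at rest, so the size of any rise on them depends on the background level. Their mean IR levels were 7.85, 6.12 and 4.64, against 10.72 on the brightest probe. The cause of this difference between probes was not tested.

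Tenascin C is a hexameric glycoprotein that weakens the adhesion of cells to fibronectin and appears transiently at the borders of injured myocardium. Its probe ILMN_2463181 gave levels of 4.85, 4.51 and 4.58 on the uninjured arrays, of which array A alone was called detected. On the IR arrays the levels were 10.33, 10.32 and 10.30. The fitted log2 fold change was 5.68 ± 0.10 (adjusted p = 1.18e-07), a size that depends on the background level, and it was 3.88 without background correction. Probe ILMN_2463180 was undetected on all uninjured arrays, at 4.28, 4.39 and 4.29, and reached 10.14, 9.97 and 10.02 after IR. This made it at least 38.0-fold higher in the background-corrected values (adjusted p = 8.78e-08). Both probes were thus at or near background before injury and far above it after.

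Of the other 5 Tnc probes, 2 were tested. Probe ILMN_2485085, undetected in uninjured hearts, reached 5.84, 6.33 and 6.03 on the IR arrays. It was at least 2.41-fold higher in the background-corrected values (adjusted p = 2.63e-05). Without background correction it rose by 0.67 on the log2 scale. Probe ILMN_1236724 had levels of 4.73, 4.36 and 4.35 against 4.88, 4.65 and 4.85, overlapping between groups. Its log2 fold change was 0.32 ± 0.12 (adjusted p = 0.0539). That value was -0.20 (adjusted p = 0.212) with arrays scaled to the median of probes detected everywhere, and 0.46 (adjusted p = 0.00681) without array A, and its adjusted p ranged from 0.00681 to 0.276 over all alternatives. The remaining 3 probes stayed at levels of 4.24 to 4.78 on all arrays, and 1 of them, ILMN_2567596, is annotated to the clone sequence AK048765 and not to NM_011607. The Tnc gene therefore has both probes far above background after IR and probes that stayed near it on all arrays. Probe positions along the transcript were not used here.

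**Figure D2:**
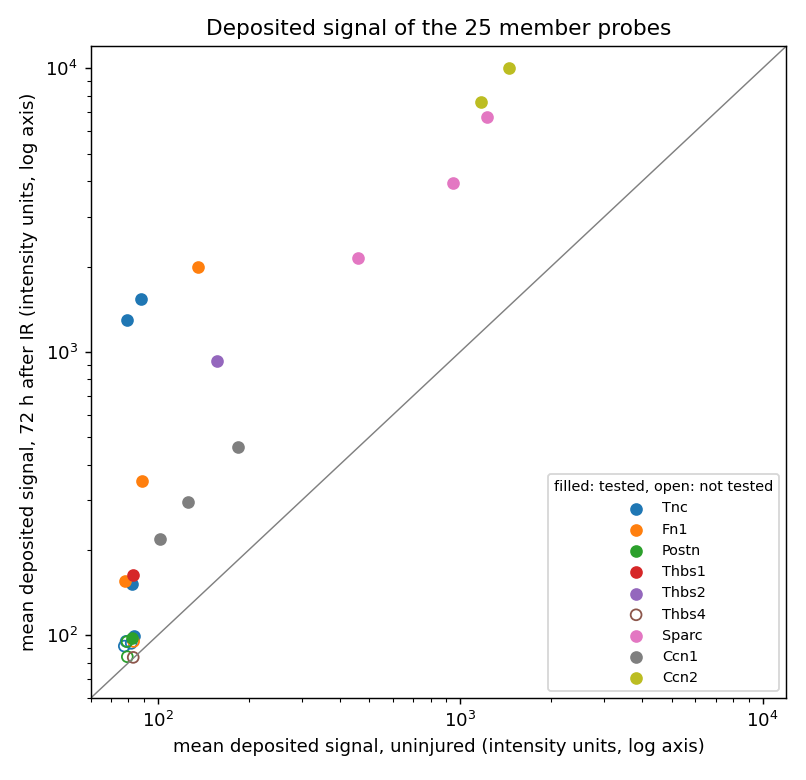
Mean signal as deposited, before any background correction or normalisation, in uninjured (x axis) and IR hearts (y axis), both in intensity units on log axes, for the 25 member probes. Filled circles are tested probes, open circles are untested ones, and the line marks equality. The Tnc probes at 87.8 and 79.4 in uninjured hearts reach 1535 and 1291 after IR, while probes of Tnc, Fn1, Postn and Thbs4 that stay under 100 on both axes gather at the lower left.

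Thrombospondins are multimeric calcium-binding proteins. Thbs1 and Thbs2 form trimers that bind the receptors CD36 and CD47 and restrain new vessel growth, and Thbs1 can activate latent TGF-beta. Thbs4 belongs to the pentameric subgroup and is known from mouse hearts under pressure overload. Thbs2 was detected on all 6 arrays, with levels of 6.94, 6.78 and 6.98 in uninjured and 9.61, 9.39 and 9.57 in IR hearts. Its log2 fold change was 2.63 ± 0.09 (adjusted p = 4.11e-07). The Thbs1 probe read 4.60, 4.35 and 4.32 at rest, undetected on each array, and 6.13, 6.31 and 6.30 after IR, detected on each. It was at least 2.73-fold higher in the background-corrected values (adjusted p = 2.85e-06). Each of the 2 genes thus had groups that lay apart, from a measurable resting level for Thbs2 and from background for Thbs1. The Thbs4 probe read 4.30, 4.31 and 4.78 against 4.34, 4.23 and 4.36, with overlapping groups and detection on no array. Some Tnc probes also stayed near background where others were bright. The 1 undetected probe therefore does not set the level of Thbs4 transcript in either group.

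CCN proteins are cysteine-rich integrin ligands made by fibroblasts and cardiomyocytes. Ccn2, known as connective tissue growth factor, acts together with TGF-beta in scar formation, and Ccn1 promotes adhesion and can drive fibroblasts into senescence. Both are textbook targets of the mechanosensitive YAP and TEAD factors. The deposited signal of Ccn2 probe ILMN_2909150 averaged 1447 in uninjured and 10019 in IR hearts. Its levels rose from 10.45, 10.98 and 10.42 to 13.23, 13.27 and 13.24. On the log2 scale this probe rose by 2.63 ± 0.15 (adjusted p = 3.19e-06) and the other Ccn2 probe by 2.47 ± 0.16 (adjusted p = 5.94e-06). The 3 Ccn1 probes rose by 1.11 ± 0.19, 1.34 ± 0.25 and 1.54 ± 0.23 on the log2 scale, with a largest adjusted p of 0.00206. On the brightest, ILMN_2794645, the levels were 6.74, 7.45 and 7.44 at rest and 8.25, 8.42 and 8.31 after IR. Ccn1 had the smallest gap between groups among the genes detected on all arrays, with the lowest IR array 1.50-fold to 1.88-fold above the highest uninjured array.

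The uninjured arrays differed among themselves for the CCN genes and Sparc. Array B was the highest uninjured array on all 3 Ccn1, both Ccn2 and all 3 Sparc probes, and on 10 of the 18 tested probes in all, against 37.6% of all tested probes. On ILMN_2710253 and ILMN_1235571 of Ccn1 it lay 0.94 and 0.87 above the mean of the other 2 uninjured arrays on the log2 scale, on the Ccn2 probes 0.54 and 0.57, and on the Sparc probes 0.42 to 0.54. On ILMN_2794645 of Ccn1 it lay 0.36 above that mean, level with array C, and array A was the low one. Without array A the Ccn1 rises were 0.88, 1.18 and 1.39. Without array B the Ccn1 rises were 1.23, 1.66 and 1.85, the Ccn2 rises 2.77 and 2.63, and the Sparc rises 2.35, 1.90 and 2.04. Each of these kept its call. The spread of the IR arrays was smaller, with ranges of 0.12 to 0.32 on the Ccn1 probes against 0.71 to 0.96 in the uninjured group.

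Sparc encodes osteonectin, a collagen-binding protein that is needed for the maturation of collagen fibrils. All 3 Sparc probes were bright on every array. ILMN_3136561 gave 10.21, 10.74 and 10.19 in uninjured and 12.60, 12.54 and 12.60 in IR hearts, a log2 fold change of 2.20 ± 0.15 (adjusted p = 7.75e-06). The other 2 probes gave 1.78 ± 0.12 and 1.92 ± 0.14 (largest adjusted p = 1.11e-05). The probes of a gene gave similar rises here, within 0.42 of each other on the log2 scale for Sparc and 0.16 for Ccn2.

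Postn encodes periostin, a matrix protein that marks activated fibroblasts and supports collagen crosslinking. None of its 3 probes was detected on an uninjured array. Probe ILMN_1216882 read 4.25, 4.40 and 4.61 at rest and 4.75, 4.79 and 4.66 after IR. The IR arrays were all higher, by as little as 1.03-fold between the nearest arrays, and the log2 fold change was 0.32 ± 0.11 (adjusted p = 0.0292). The probe was detected on all 3 IR arrays, with detection p-values of 0.0288, 0.0192 and 0.0321. Its IR levels did not exceed the lowest detected levels of the uninjured arrays on average, so no fold can be given against that limit. The call was kept in 5 of 15 alternatives and lost in the rest, among them those without array A (0.24, adjusted p = 0.0759), without B (0.31, adjusted p = 0.064), without D (0.29, adjusted p = 0.0842), without E (0.27, adjusted p = 0.0923) and without F (0.33, adjusted p = 0.0507). The value turned to -0.21 (adjusted p = 0.175) with arrays scaled to the median of probes detected everywhere, and adjusted p-values ran from 0.00494 to 0.175. ILMN_2766028 was detected on IR array D alone, at 4.78, and ILMN_2493114, annotated to the clone AK052220, on none. By 1 of its 3 probes, Postn was therefore detected on all IR arrays, close to the detection limit, while the activated fibroblast markers Lox, Cthrc1 and Col8a1 rose on the same arrays.

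**Figure D3:**
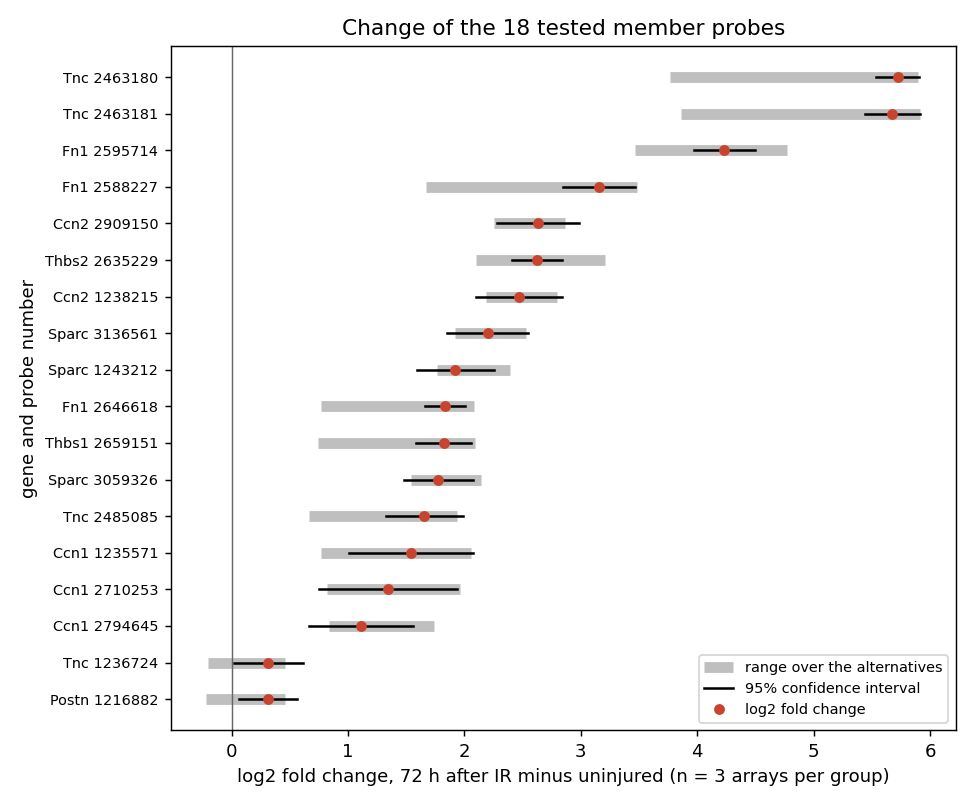
Log2 fold change of the 18 tested member probes, IR minus uninjured, from limma with 3 arrays per group, as red points with 95% confidence intervals as black lines. Grey bars span the values under the alternatives. The points run from 0.32 for Postn ILMN_1216882 to 5.72 for Tnc ILMN_2463180, and the grey bars cross 0 on Postn ILMN_1216882 and Tnc ILMN_1236724 alone.

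The background correction sets much of the size of these rises. Without it, rises of at least 2-fold numbered 10 and not 16 among the 18 probes, where 6.87% of all tested probes rose as much in place of 13.1%. The authors' own processed values gave the same count of 10, beside 6.84% of all tested probes. Thbs1 then rose by 0.75 in place of 1.82 on the log2 scale, Tnc ILMN_2463181 by 3.88 in place of 5.68, and Fn1 ILMN_2588227 by 1.69 in place of 3.16. The bright Ccn2 probe ILMN_2909150 moved from 2.63 to 2.58. Scaling the arrays to the median of all probes moved the median log2 fold change of all tested probes from 0.03 to 0.46, and scaling to the median of probes detected everywhere moved it to -0.15. The split of all calls depended on this choice: 52.5% of called probes rose in the quantile-normalised data, 77.5% under the first scaling and 42.2% under the second. The 16 member probes other than Postn ILMN_1216882 and Tnc ILMN_1236724 kept their direction and call under all 16 alternatives.

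Promoter sequence was available from RefSeq (GRCm38.p6) for 7 of the 10 genes, and Thbs1, Ccn2 and Fn1 had no entry. The 250 bases before each gene's start were searched on both strands for the AP-1 motif TGANTCA, the TEAD motif GGAATG and the CArG box of serum response factor. The TEAD motif lay upstream of Ccn1 and Thbs4, and none of the 3 motifs lay in this window of the other 5 genes, which were Spp1, Tnc, Thbs2, Sparc and Postn. Over all 32851 promoter entries, the share with a match was 6.75% for AP-1, 12.6% for TEAD and 1.47% for the CArG box. The windows of Ccn1, which rose, of Thbs4, which was undetected, and of Tnc, the member with the largest rise, read as follows, 5′ to 3′ on the strand of the gene, with TEAD matches in capitals.
Ccn1, chr3:145649986-145650235, minus strand: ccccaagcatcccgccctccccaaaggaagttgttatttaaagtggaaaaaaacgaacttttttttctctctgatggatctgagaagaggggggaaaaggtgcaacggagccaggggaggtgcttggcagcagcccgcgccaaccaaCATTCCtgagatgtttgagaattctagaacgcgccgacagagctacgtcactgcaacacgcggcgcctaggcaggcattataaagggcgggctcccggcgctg
Thbs4, chr13:92794819-92795068, minus strand: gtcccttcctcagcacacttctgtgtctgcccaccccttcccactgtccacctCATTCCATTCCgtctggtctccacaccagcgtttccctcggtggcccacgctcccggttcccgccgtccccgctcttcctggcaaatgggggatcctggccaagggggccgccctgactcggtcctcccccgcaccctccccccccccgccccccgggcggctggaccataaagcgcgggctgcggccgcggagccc
Tnc, chr4:64047016-64047265, minus strand: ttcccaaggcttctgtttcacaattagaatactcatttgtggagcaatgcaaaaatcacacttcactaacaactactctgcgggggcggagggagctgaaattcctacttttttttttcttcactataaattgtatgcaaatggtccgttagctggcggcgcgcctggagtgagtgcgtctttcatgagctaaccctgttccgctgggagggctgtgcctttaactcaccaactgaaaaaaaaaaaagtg
The Ccn1 match lies 103 to 98 bases before the start, and the Thbs4 matches lie 197 to 192 and 192 to 187 bases before it, sharing 1 base. All matches read on the strand opposite to the gene. A match is a description of these letters, and binding was not measured.

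Close relatives and other matrix glycoproteins, a list of 43 genes, moved both ways. Of 25 measured by their brightest tested probe, 19 rose and 4 fell, where 38.9% of 10204 genes rose and 34.1% fell. The counts of this list, and of the receptor and assembly lists below, are a description. The lists were chosen with earlier results of these data known, and some genes undetected at rest entered through the IR arrays. The median log2 fold change of the list was 1.06. Cthrc1, a secreted collagen triple helix protein undetected at rest, was at least 20.1-fold higher in the background-corrected values (adjusted p = 8.78e-08). Its log2 fold change ran from 2.91 to 5.02 over the alternatives. Ccn4, formerly Wisp1, rose by 4.39 ± 0.16 (adjusted p = 4.97e-07) from levels of 4.72, 5.13 and 4.44 to 9.11, 9.17 and 9.17, although a second probe gave 1.09. Ccn5, formerly Wisp2, rose by 3.23 ± 0.13 (adjusted p = 6.11e-07), while Ccn3 was undetected on all arrays. The thrombospondin relatives Thbs3 (1.06 ± 0.14) and Comp (1.33 ± 0.16), the cartilage oligomeric matrix protein, rose less, with dimmer probes down to 0.55 and 0.44.

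In the opposite direction, Tnxb, the tenascin X of loose connective tissue, fell by 2.83 ± 0.09 on the log2 scale (adjusted p = 3e-07), from levels of 8.31, 8.34 and 8.44 to 5.64, 5.38 and 5.58. Its 3 probes fell by 2.53 to 2.83. Tnc and Tnxb, both tenascins, hence moved in opposite directions on the same arrays. Vtn, which encodes vitronectin, fell by 2.19 ± 0.09 (adjusted p = 6.24e-07). Sparcl1, also called hevin, fell by 0.81 ± 0.09 (adjusted p = 0.000157), opposite to its relative Sparc, but its value was -0.17 (adjusted p = 0.315) with arrays scaled to the median of all probes. Fbln1, which fell as well, is named after its value was seen, at -0.56 on its brightest probe and -1.44 to -0.08 over 5 probes. Its value was -0.08 (adjusted p = 0.544) under that same scaling. Smoc1 (-0.35, adjusted p = 0.0950) and Vwa1 (0.28, adjusted p = 0.159) did not pass.

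**Figure D4:**
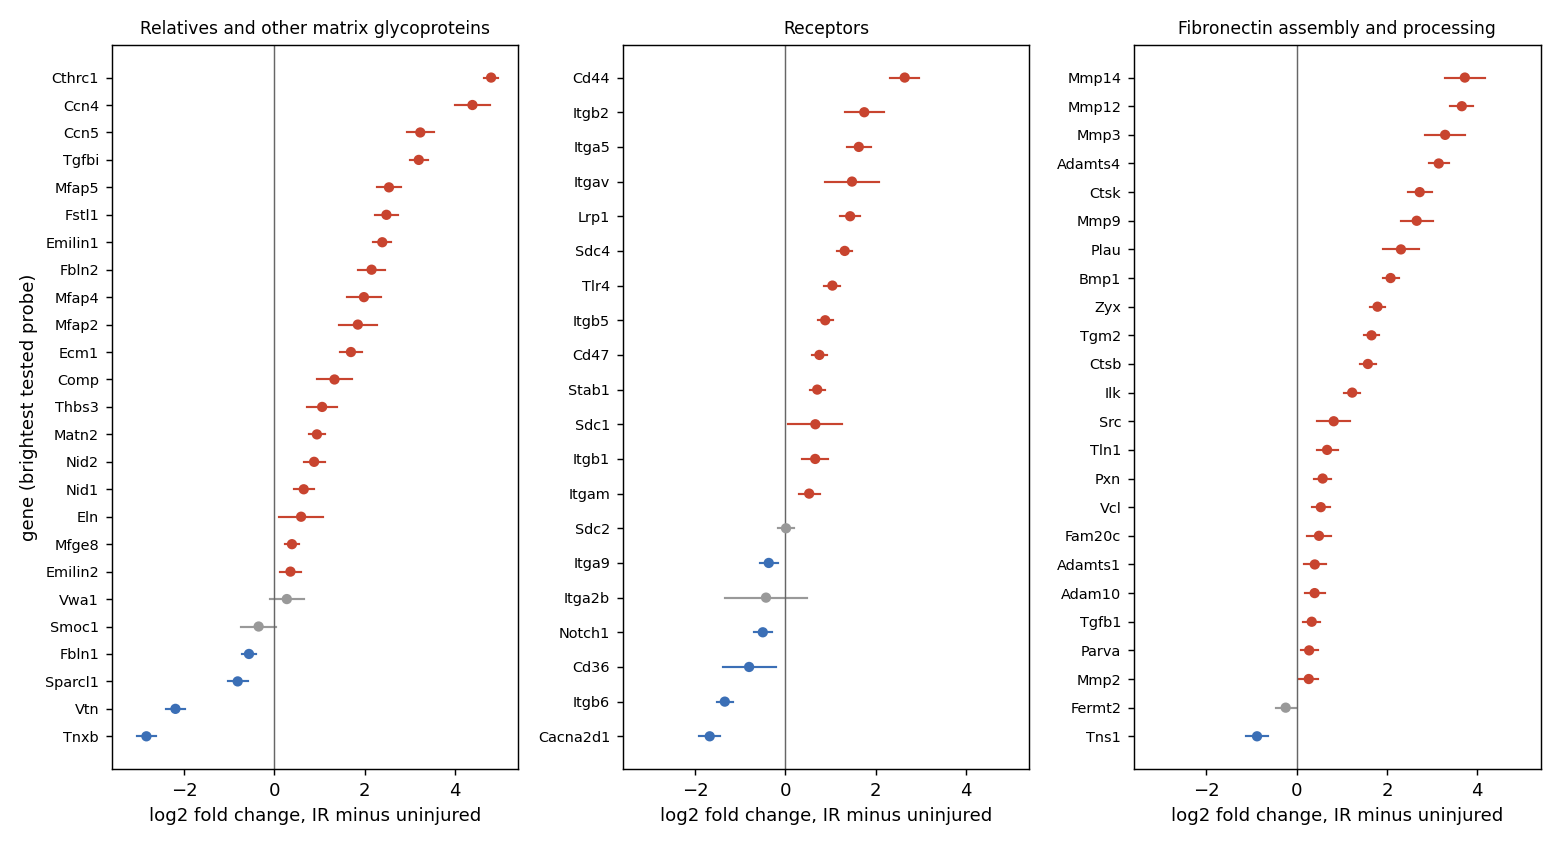
Log2 fold change, IR minus uninjured, with 95% confidence intervals, of each gene's brightest tested probe in 3 lists: 25 relatives and other matrix glycoproteins, 20 receptors, and 24 genes of fibronectin assembly and member processing. Red marks genes called higher, blue genes called lower and grey genes that did not pass. Cthrc1 and Ccn4 lead the relatives and Tnxb is lowest, and Cd44 leads the receptors.

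Surface receptors known to bind the members were measured for 20 of 26 genes, of which 13 rose and 5 fell, beside the shares of 38.9% and 34.1% over all genes. Their median log2 fold change was 0.68. Cd44, the hyaluronan receptor that also binds osteopontin, rose by 2.64 ± 0.13 (adjusted p = 1.86e-06), from 6.48, 6.98 and 6.52 to 9.31, 9.32 and 9.28. Its 3 tested probes gave 1.22 to 2.84. Itgb2, the leukocyte integrin chain, rose by 1.75 ± 0.18 (adjusted p = 9.06e-05). It was detected on 1 uninjured array, and its value ran from 0.72 to 2.09 over the alternatives. The fibronectin receptor chains Itga5 and Itgb1 rose by 1.62 ± 0.11 and 0.66 ± 0.12, and Itgav, the chain shared by receptors for osteopontin, periostin and fibronectin, by 1.47 ± 0.26 (largest adjusted p = 0.00175). The brightest Itgav probe was also detected on 1 uninjured array, and its value ran from 0.64 to 1.94 over the alternatives. A second Itgav probe gave 0.92. Itgb3, a partner of Itgav, was undetected on all 6 arrays. Sdc4, a syndecan of focal adhesions, rose by 1.31 ± 0.07 (adjusted p = 2.84e-06).

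Of the thrombospondin receptors, Cd47 rose by 0.75 ± 0.07 (adjusted p = 3.46e-05). Cd36, also a fatty acid transporter of cardiomyocytes and endothelium, had a fitted value of -0.80 ± 0.25 (adjusted p = 0.0219). Its levels were 5.61, 4.70 and 5.70 at rest and 4.46, 4.53 and 4.61 after IR, the latter at background. It was detected on 1 of 3 IR arrays, so the size of its fall depends on the background level. The Cd36 call rests on single arrays, since it was lost without uninjured array A (-0.69, adjusted p = 0.067), uninjured array C (-0.67, adjusted p = 0.0598), IR array D (-0.73, adjusted p = 0.0652) or IR array E (-0.76, adjusted p = 0.0591), and its adjusted p ranged up to 0.103 over the alternatives. Cacna2d1, a calcium channel subunit that binds thrombospondins, fell by 1.68 ± 0.10 (adjusted p = 3.61e-06) on its brightest probe, with another of its 3 probes at 0.34. Itgb6 fell by 1.34 ± 0.08 (adjusted p = 2.96e-06). Itga9, whose product binds tenascin C and osteopontin, had a value of -0.37 ± 0.08 (adjusted p = 0.00569) on its brightest probe and 0.32 on another, and turned to 0.17 (adjusted p = 0.303) with arrays scaled to the median of all probes, with adjusted p-values of 0.0006 to 0.303 over the alternatives. Notch1 was the fifth gene that fell, at -0.50 (adjusted p = 0.00141), and turned to 0.11 (adjusted p = 0.459) under that scaling. Sdc2 (0.01, adjusted p = 0.895) and Itga2b (-0.43, adjusted p = 0.347) did not pass.

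Genes of fibronectin assembly, adhesion sites and processing of the members were measured for 24 of 27, and 22 of them rose, where 38.9% of all genes did. This count too is a description, and 3 genes of the list were undetected at rest. Their median log2 fold change was 1.03. Mmp14, a membrane-bound matrix metalloproteinase, rose by 3.73 ± 0.19 (adjusted p = 1.79e-06) and Mmp3, a secreted one, by 3.29 ± 0.19 (adjusted p = 3.40e-06). Mmp12, a macrophage elastase undetected at rest, was at least 10.2-fold higher in the background-corrected values (adjusted p = 2.38e-07). Its log2 fold change ran from 1.98 to 3.93 over the alternatives. Tns1, the focal adhesion protein tensin, fell by 0.88 ± 0.10 (adjusted p = 0.000166), and Fermt2 (-0.24, adjusted p = 0.0551) did not pass. Fermt2 was called lower in 9 of 16 alternatives, with adjusted p-values of 0.00361 to 0.396. It turned to 0.15 with arrays scaled to the median of all probes.

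Markers of several cell types moved on the same arrays as the members. Their counts are a description, to be read beside the 38.9% of all 10204 genes that rose and the 34.1% that fell. Macrophage markers rose in 8 of 9 measured genes, led by Gpnmb (6.98 ± 0.17 on its brightest probe, 0.94 to 6.98 over 4 probes). The summed normalised intensity of the list went from 1931 to 2245 on the uninjured arrays up to 20307 to 22410 after IR. Of this list, Trem2, Arg1 and Ccr2 were undetected at rest. Neutrophil markers rose in 5 of 5, from sums of 105 to 142 to 2517 to 3937. Of these, Cxcr2 and Retnlg were undetected at rest, and S100a8 and S100a9 were detected on 1 uninjured array. Csf3r gave -0.004 to 2.77 over 5 probes. Fibroblast markers rose in 6 of 7, led by the collagens Col1a2 (3.87 ± 0.09), Col1a1 (3.86 ± 0.12) and Col3a1 (3.68 ± 0.09), from sums of 8808 to 9050 to 14353 to 14498, while Ddr2 was undetected in both groups. All 5 activated fibroblast markers rose, from 3017 to 3555 to 11541 to 12024, led by Lox at 5.99 ± 0.21. Lox was detected on 1 uninjured array, and Cthrc1 was undetected at rest.

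Cardiomyocyte markers fell in 6 of 7 measured genes, among them Ckm (-4.10 ± 0.08) and Myh6 (-2.79 ± 0.07 on the brighter of 2 probes, -4.55 on the other). Their sums went from 58048 to 59502 down to 25449 to 26531. For this and the following lists, 38.9% of all genes rose and 34.1% fell. Smooth muscle and pericyte markers split, with Tagln at 1.30 ± 0.09 and Rgs5 at -2.18 ± 0.11, and 2 of 5 genes called in each direction. Their sums were 911 to 1058 and 486 to 512, with Cnn1 undetected. Endothelial markers had 1 rise and 1 fall among 5, with sums of 3377 to 3678 and 3588 to 3642, and Kdr was undetected. The rise was Cdh5 at 0.30 (adjusted p = 0.0319), with another probe at -0.43, and its call was lost in 6 of 16 alternatives. The fall was Tie1 at -0.81, which moved to -0.17 (adjusted p = 0.245) with arrays scaled to the median of all probes. Platelet markers had 2 rises and 1 fall among 4, with sums of 719 to 828 and 3454 to 4350. Pf4, a chemokine of platelets and some macrophages, gave most of that change at 2.71 ± 0.10, while Gp9 was undetected after IR. Of the epicardial list Upk3b alone was measured and did not pass, and no skeletal muscle gene of the chest wall list was. What part these cell types have in the members' values was not tested.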

How the data were processed

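Per the file headers, the deposited intensities are mean bead signals and come with detection p-values for 6 arrays. Per the submitters' processing notes, GenomeStudio 2010.3 was used, and its steps are not given in the sources used here. As read from their values, the deposited intensities carried no background subtraction or normalization, and the authors' processed intensities were quantile-normalized. Depth is not defined for arrays, and their number limits the precision.

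With limma 3.58.1 in R 4.3.3, neqc estimated background from detection p-values, added 16, normalized by quantiles and took log2. Probes detected (p under 0.05) on at least 3 of 6 arrays, 18197 in number, were fitted by lmFit and eBayes with group as the only term. Benjamini-Hochberg adjustment ran over all of them (threshold 0.05). Fold changes refer to intensity plus 16 and understate dim probes. For a probe undetected on a whole group, "at least N-fold" sets the brighter group's mean against the higher, per array, of its value and the lowest detected level. Such a bound holds only under this background correction and offset. Symbols came from the platform annotation through RefSeq GRCm38.p6. Of all probes 34885 had 1 symbol, 18 several and 10378 none. Genes outside the members took their brightest tested probe. The named ones are the 3 largest changes per list, up to 3 of opposite direction, and relatives and receptors fixed by name. The members and lists were chosen with earlier results of these data known. The fit was tested on simulated data. Same-numbered samples of the 2 groups had correlations of deviations of -0.08 to -0.0048 in the authors' values. These values show no shared deviation, but with 3 samples per group they cannot exclude pairing or a shared batch.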

Additional observations from a re-analysis of the deposited data

How the results depend on the processing

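The arrays' number and dim probes limit precision. Of the 18 member probes, 17 were called higher, and 16 to 18 were under the alternatives, with 0 lower in each. The share of all tested probes called higher was 36.5%, and 14.5% to 57.4% under the alternatives. The count rising at least 2-fold, a result added after the data were seen, fell from 16 to 10 without background correction, with the authors' processed values and with those values and a replicate block, and was 12 at an offset of 50. The share of all tested probes rising as much fell from 13.1% to 6.87%, 6.84% and 6.84%, and was 8.74% at that offset. The replicate block, possible for the authors' values alone, gave Postn 0.15 (adjusted p = 0.0615, against 0.0483 without it) and changed the call of no other member probe. Without a filter 18 of 25 member probes rose, beside 14.5% of all 45281 probes, with ILMN_1251943 of Tnc and ILMN_2766028 of Postn among them. Postn ILMN_1216882 was then lost (adjusted p = 0.0586). With arrays scaled to the median of all probes, 10440 probes rose and 3023 fell in place of 6644 and 6022, endothelial markers had 4 rises and 0 falls, the epicardial list had 1 rise, and Itga9 turned to 0.17, Notch1 to 0.11, Fermt2 to 0.15 and Smoc1 to 0.29. Scaled to the median of probes detected everywhere, Tnc ILMN_1236724 turned to -0.20, Postn to -0.21, Vwa1 to -0.084 and Sdc2 to -0.0053, and 1 fibroblast marker and 2 endothelial markers fell. Without a filter 0 endothelial and 1 platelet marker rose, and under the stricter filter 0 platelet markers fell. With arrays A, B, D and E alone, 0 endothelial and 1 platelet marker rose, 0 platelet markers fell and Itga2b turned to 0.10. Leaving out 1 array gave 0 to 1 endothelial and 1 to 2 platelet rises. It gave Sdc2 values of -0.029 to 0.050, below 0 without B or F, and Itga2b values of -0.74 to 0.052, above 0 without C. The cause of these changes was not tested.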
